A study of Mus musculus with 48 samples.

Results

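The genes described here are 10 genes that T cells use for antigen recognition: Cd3g, Cd3e, Cd4, Cd8a, Cd8b1, Lck, Zap70, Thy1, Cd2 and Cd5. Expression is read by probe sets, groups of short oligonucleotides on the array, and all those to which the platform's gene table gives 1 of these symbols were taken, which gave 11 of the 12422 probe sets that are not controls. They name 9 of the 10 genes, out of 8251 genes named by all probe sets with 1 symbol. Zap70 has 3 probe sets (93661_at, 93662_s_at and 93663_r_at), each other measured gene has 1, and Lck is not listed for any probe set in the table used here. RNA was measured on 48 Affymetrix MG-U74Av2 arrays, 1 per sample, from spleen, lung, heart and liver of 2 inbred mouse strains, A/J and C57BL/6J, at time 2 and time 1, with 3 biological replicates in each of the 16 groups. The mice were male littermates aged 3 months with no treatment or engineered allele named, and the labels do not say what separates the times. It is also not stated how many litters were used or whether a mouse gave more than 1 tissue, so the p-values cover the spread between these animals, and litter and group cannot be told apart.

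T cells recognise peptide antigens through the T cell receptor, whose signal passes through the CD3 chains. Cd3g and Cd3e encode 2 of these chains. Cd4 and the Cd8a and Cd8b1 chains encode the coreceptors that mark helper and cytotoxic T cells and bring the kinase Lck to the receptor. Lck phosphorylates the CD3 chains, and the kinase Zap70 then binds them and passes the signal on. Cd2 is an adhesion and costimulatory receptor, Cd5 dampens receptor signalling, and Thy1 is a surface glycoprotein of mouse T cells. Several are not confined to T cells: Thy1 is also made by neurons and fibroblasts, Cd4 by some dendritic cells and macrophages, Cd5 by a subset of B cells, and Cd2 and Zap70 by natural killer cells. The spleen holds T cells in the white pulp around its arterioles, beside B cell follicles.

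Cd3g and Cd3e lie on chromosome 9 on either side of Cd3d, another CD3 chain gene, and Cd8a and Cd8b1 are next to each other on chromosome 6. Promoters, here 250 bases before to 50 bases after a transcription start, were listed by RefSeq (GRCm38.p6) for 6 of the 10 genes. Those of the 5 measured genes among them are shown so that members higher in spleen can be compared. Cd3g is at chr9:44980382-44980681 (minus strand), Cd3e at chr9:45009562-45009861 (minus), Cd5 at chr19:10738925-10739224 (minus), the first of 3 listed Zap70 starts at chr1:36761548-36761847 (plus) and Cd8a at chr6:71373177-71373476 (plus). Each is written 5′ to 3′ along the gene, and capitals mark matches on either strand to the letters CAGGAAG (read by ETS factors), TGTGGT (RUNX), CTTTGA (TCF and LEF) and CACCTG (E proteins).
Cd3g: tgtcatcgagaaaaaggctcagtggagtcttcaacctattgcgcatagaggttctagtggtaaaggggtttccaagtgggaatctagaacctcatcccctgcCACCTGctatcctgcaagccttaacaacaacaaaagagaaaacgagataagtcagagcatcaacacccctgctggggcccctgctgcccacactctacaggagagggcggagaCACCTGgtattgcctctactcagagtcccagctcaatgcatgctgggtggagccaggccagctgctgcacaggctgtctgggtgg
Cd3e: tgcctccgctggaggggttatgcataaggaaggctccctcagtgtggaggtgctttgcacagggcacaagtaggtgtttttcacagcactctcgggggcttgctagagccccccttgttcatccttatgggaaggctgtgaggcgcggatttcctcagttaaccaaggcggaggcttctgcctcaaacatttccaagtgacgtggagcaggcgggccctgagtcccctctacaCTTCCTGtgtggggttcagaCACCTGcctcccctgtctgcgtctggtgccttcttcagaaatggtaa
Cd5: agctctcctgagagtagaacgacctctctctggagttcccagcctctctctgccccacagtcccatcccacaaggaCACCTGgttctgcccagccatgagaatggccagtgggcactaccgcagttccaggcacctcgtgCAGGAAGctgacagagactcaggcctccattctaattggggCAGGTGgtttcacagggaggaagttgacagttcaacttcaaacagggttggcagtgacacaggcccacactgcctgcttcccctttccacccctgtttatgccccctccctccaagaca
Zap70: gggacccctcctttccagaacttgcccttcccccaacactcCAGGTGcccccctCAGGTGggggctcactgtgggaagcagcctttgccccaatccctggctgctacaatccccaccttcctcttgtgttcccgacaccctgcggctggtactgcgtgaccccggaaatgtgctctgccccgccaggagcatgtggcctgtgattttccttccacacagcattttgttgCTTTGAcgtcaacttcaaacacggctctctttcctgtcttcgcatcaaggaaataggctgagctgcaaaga
Cd8a: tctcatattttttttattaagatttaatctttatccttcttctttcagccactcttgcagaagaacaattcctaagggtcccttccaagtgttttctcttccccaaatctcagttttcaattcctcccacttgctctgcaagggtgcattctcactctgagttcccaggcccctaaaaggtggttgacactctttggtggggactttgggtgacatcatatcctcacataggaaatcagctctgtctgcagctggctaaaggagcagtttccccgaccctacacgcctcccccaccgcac
The E protein letters occurred in the printed windows of Cd3g, Cd3e, Cd5 and Zap70, 2 times in 3 of them, and are present in 20.2% of all 32851 promoters of this length. The ETS letters occurred in those of Cd3e and Cd5, against 13.3% of all promoters. The TCF and LEF letters occurred in that of Zap70, against 16% of all promoters. Cd8a held none of these letters, and no printed window held the RUNX letters (16.8% of all) or TATAAA (13.6%). Of the other Zap70 starts, which are not printed, the second held the ETS and RUNX letters once each and the third the E protein letters once, so the count for Zap70 depends on the start that is read. These matches describe the letters only.

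Values are log2 intensities as deposited, so that a difference of 1 is a doubling. Array medians lay between 8.86 and 9.01. Levels are compared between samples within 1 probe set and never between probe sets. A B cell list averaged 11.03 to 11.36 over the spleen groups, against 8.40 to 9.14 over the groups of the other tissues. Some groups also carried markers of another tissue. Alb, a liver gene, averaged 13.07 ± 0.29 in the A/J lungs of time 1. Scgb1a1, an airway gene, averaged 13.01 ± 0.98 in the C57BL/6J hearts of time 1. The array names fall into 4 sets. All tissues at time 2 share 1 set, so tissues were compared at time 2, and strains share a set within each tissue and time. In 5 of the 12 spleen arrays, genes of the exocrine pancreas, an organ that lies against the spleen, averaged 11.42 to 12.52, against 9.43 to 9.93 in the other 7. These 5 were A/J replicates 1 and 3 and C57BL/6J replicate 2 at time 1, and C57BL/6J replicates 1 and 3 at time 2.

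Spleen gave the highest level of nearly all T cell genes. For 7 of the 11 probe sets, those of Cd3g, Cd3e, Cd8a, Cd8b1, Thy1, Cd2 and Cd5, all 12 spleen arrays lay above all 36 arrays of the other tissues, a pattern that 4.97% of all probe sets showed. The clearest separation was that of Cd8b1, whose lowest spleen array, at 9.53, stood 1.08 above the highest other array, a lung at 8.45. The narrowest of the 7 was that of Cd5, with a lowest spleen value of 9.30 and a highest other value of 9.11, in liver. Cd4 and the 3 Zap70 probe sets overlapped, each with its highest other value in liver. In bulk tissue, fewer T cells and less RNA per T cell cannot be told apart.

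At time 2, 10 of the 11 probe sets were higher in spleen than in lung by limma's moderated test (adjusted p below 0.05 after Benjamini-Hochberg adjustment across the whole array), while 29.3% of all probe sets were, and 0 were lower (23.8% of all). The members' median difference was 1.06, against 0.0364 for all probe sets. Cd8b1 averaged 9.91 ± 0.39 in spleen and 8.04 ± 0.17 in lung (SD, n = 6 each), a difference of 1.87 ± 0.09 (standard error, SE, here and for each difference below; adjusted p = 3.8e-14). Cd2 averaged 10.27 ± 0.33 in spleen and 8.82 ± 0.15 in lung, a difference of 1.45 ± 0.08 (adjusted p = 8.3e-14).

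The other differences over lung ran from 1.40 for Thy1, through 1.21 for Cd3g, 1.07 and 1.06 for Zap70 93661_at and 93662_s_at, 1.05 for Cd3e and 1.01 for Cd5, down to 0.76 for Cd8a and 0.63 for Cd4. The exception was Zap70 93663_r_at, at 11.43 ± 0.14 in spleen and 11.40 ± 0.13 in lung (difference 0.02 ± 0.06). The suffix _r_at marks a probe set that the manufacturer could design only under relaxed rules. It varied between 11.26 and 11.78 over all 48 arrays and did not share the pattern of the other Zap70 probe sets.

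Against heart, 10 members were higher in spleen (29.8% of all probe sets) and 1, Zap70 93663_r_at, was lower by 0.21 ± 0.06 (37.3% of all). Against liver, 10 were higher (31.3% of all) and 0 lower (30.1% of all). Cd8b1 (2.14 ± 0.09), Cd2 (2.13 ± 0.08) and Thy1 (2.05 ± 0.08) had the widest gaps over liver. Zap70 93661_at and 93662_s_at were only 0.37 ± 0.10 and 0.60 ± 0.06 above it, and Cd4 only 0.37 ± 0.07. The first of these Zap70 calls was lost without the 2 spleens of time 2 that were high in pancreas genes (0.22 ± 0.10, adjusted p = 0.080), and at time 1 that probe set was lower in spleen than in liver by 0.18 ± 0.08 (adjusted p = 0.059).

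**Figure D1:**
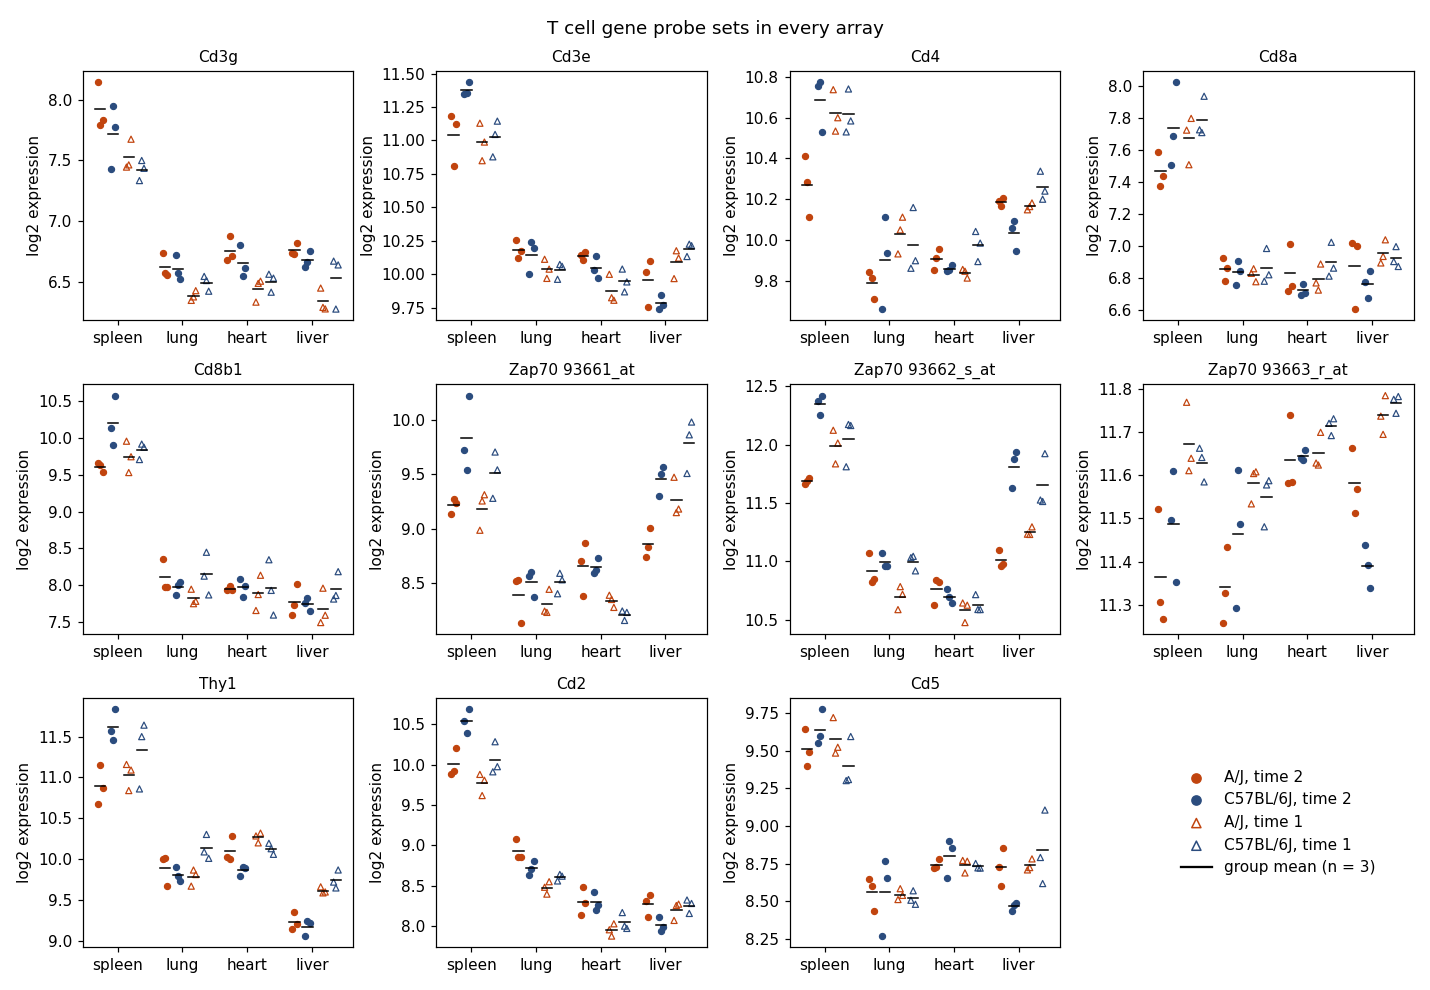
Log2 expression of each T cell gene probe set in every array (vertical axes, 1 panel per probe set) by tissue, strain and time; bars are group means of 3 arrays. Spleen stands above the other tissues in 7 panels. Zap70 93661_at and 93662_s_at are also high in livers, more so in C57BL/6J, and Zap70 93663_r_at is nearly level.

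**Figure D2:**
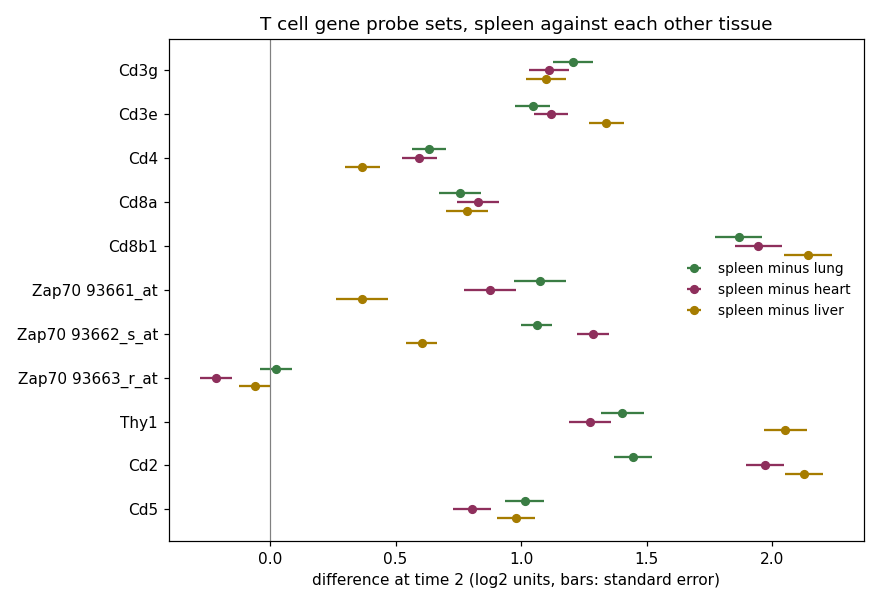
Difference in log2 expression of spleen minus lung, heart or liver at time 2 for each probe set, with standard errors (6 arrays per tissue). Cd8b1 reaches 1.87 or more against all 3 tissues, and Zap70 93661_at and Cd4 are each only 0.37 above liver.

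Outside the spleen, the order of the tissues differed between members. For Cd2, the order at time 2 was lung (8.82 ± 0.15), heart (8.30 ± 0.13) and liver (8.15 ± 0.18, SD, n = 6 each). Lung exceeded heart by 0.52 ± 0.08 (adjusted p = 2.6e-06), and heart and liver did not differ past the test (0.16 ± 0.08, adjusted p = 0.089). For Thy1, heart (9.99 ± 0.17) and lung (9.86 ± 0.14) did not differ past the test, and both exceeded liver (9.21 ± 0.10), by 0.78 ± 0.08 and 0.65 ± 0.08.

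Cd3e ran from lung (10.16 ± 0.09) through heart (10.09 ± 0.08) to liver (9.87 ± 0.15), with only the last step past the test. Both steps of Cd8b1 were below it, from lung (8.04 ± 0.17) through heart (7.96 ± 0.08) to liver (7.76 ± 0.15), but lung exceeded liver by 0.28 ± 0.09 (adjusted p = 0.013). Cd5 was higher in heart (8.77 ± 0.09) than in lung (8.56 ± 0.18), with liver between them (8.60 ± 0.17). Cd3g and Cd8a gave no call among the 3 tissues, with means of 6.61 to 6.72 and 6.78 to 6.85.

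Cd4 and Zap70 ran the other way, with liver next to spleen. Cd4 averaged 9.85 ± 0.16 in lung and 10.11 ± 0.10 in liver at time 2, a difference of -0.26 ± 0.07 (adjusted p = 0.0017). Zap70 93661_at averaged 8.45 ± 0.18 in lung and 9.16 ± 0.35 in liver (difference -0.71 ± 0.10), and Zap70 93662_s_at 10.96 ± 0.11 in lung and 11.41 ± 0.45 in liver (difference -0.46 ± 0.06). In all, lung minus liver gave 4 members higher (31.7% of all probe sets) and 3 lower (34.4%), lung minus heart 2 higher (29.3%) and 2 lower (39.2%), and heart minus liver 3 higher (34.5%) and 3 lower (22.3%). These counts do not set the members apart from all probe sets.

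The genes that work with the members mostly shared their higher level in spleen. Of all probe sets, 29.3% were higher in spleen than in lung at time 2 and 23.8% lower. Of 15 measured genes of the T cell receptor and its proximal signalling, 12 were higher in spleen than in lung at time 2 and none was lower, with a median of 0.606. Cd3d, the third CD3 chain gene of the chromosome 9 cluster, differed by 2.74 ± 0.10, and Lcp2, an adaptor that Zap70 phosphorylates, by 1.36 ± 0.08. Of 27 costimulatory and surface genes, 23 were higher and none lower (Cd7 by 1.96 ± 0.06, Ltb by 2.78 ± 0.15). Of 12 T cell transcription factors, 7 were higher and 1 lower (Satb1 higher by 1.88 ± 0.11), and of 8 homing genes 6 were higher and 1 lower (Ccr7, the receptor that guides lymphocytes into T cell zones, higher by 1.79 ± 0.09). The B cell list moved further, with 14 of 14 genes higher and a median of 2.2. Of 5 thymocyte genes none was higher and 1 was lower.

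Between the strains, part of the T cell genes of the spleen were lower in A/J. Over both times, with time as an additive term, 4 of the 11 probe sets were lower in A/J than in C57BL/6J (6.67% of all probe sets) and 0 were higher (6.05% of all). They were Cd2 (-0.41 ± 0.09, adjusted p = 0.0093), Zap70 93661_at (-0.47 ± 0.12, adjusted p = 0.017), Thy1 (-0.51 ± 0.14, adjusted p = 0.028) and Zap70 93662_s_at (-0.36 ± 0.11, adjusted p = 0.048). The members' median difference was -0.204, against -0.00522 for all probe sets, and 9 of 11 differences were below 0. The remaining probe sets did not pass the test: Cd8b1 differed by -0.34 ± 0.12 (adjusted p = 0.099), Cd4 by -0.20 ± 0.09, Cd8a by -0.19 ± 0.09, Cd3e by -0.19 ± 0.09, Zap70 93663_r_at by -0.04 ± 0.07, Cd5 by 0.02 ± 0.09 and Cd3g by 0.16 ± 0.09.

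In the arrays of time 2 alone, 6 probe sets were lower in A/J (7.78% of all) and none higher (8.24% of all), with a median of -0.414 for the members and -0.0535 for all probe sets. For 7 of 11, every A/J spleen lay below every C57BL/6J spleen (16.4% of all probe sets).

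Zap70 93662_s_at had 11.66, 11.69 and 11.71 in A/J spleens, against 12.37, 12.26 and 12.42 in C57BL/6J spleens, a difference of -0.66 ± 0.11 (adjusted p = 0.0010). Zap70 93661_at had 9.13, 9.27 and 9.24 in A/J, against 9.73, 9.54 and 10.23 in C57BL/6J (-0.62 ± 0.16, adjusted p = 0.019). Thy1 had 10.67, 11.15 and 10.87 in A/J, against 11.57, 11.46 and 11.83 in C57BL/6J (-0.72 ± 0.19, adjusted p = 0.019). In each of these 3 the strains did not overlap.

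The same held for the coreceptor chain Cd8b1, with 9.66, 9.63 and 9.54 in A/J, against 10.14, 9.90 and 10.57 in C57BL/6J (-0.60 ± 0.15, adjusted p = 0.017). Cd2 had 9.89, 9.93 and 10.20 in A/J, against 10.54, 10.39 and 10.69 in C57BL/6J (-0.53 ± 0.12, adjusted p = 0.011). Cd4 had 10.41, 10.28 and 10.12 in A/J, against 10.75, 10.77 and 10.53 in C57BL/6J (-0.41 ± 0.10, adjusted p = 0.015). Cd2 and Cd4 also separated the strains completely.

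The CD3 chain genes gave no call. Cd3e had 11.19, 10.81 and 11.12 in A/J, against 11.34, 11.36 and 11.44 in C57BL/6J, without overlap, but its difference of -0.34 ± 0.11 missed the test (adjusted p = 0.055). Cd3g had 8.14, 7.79 and 7.83 in A/J, against 7.43, 7.94 and 7.77 in C57BL/6J (0.21 ± 0.13, adjusted p = 0.32). The strains overlapped in Cd3g, as they did in Cd8a (-0.27 ± 0.13), Cd5 (-0.13 ± 0.11) and Zap70 93663_r_at (-0.12 ± 0.09).

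At time 1, limma called 0 of the 11 in spleen in either direction (1.14% of all higher, 1.78% lower), and 1, Cd2, had an unadjusted p under 0.05. Cd2 had 9.88, 9.62 and 9.81 in A/J, against 9.91, 10.28 and 9.97 in C57BL/6J, the 1 member whose strains did not overlap (10.7% of all probe sets). Its difference was -0.29 ± 0.12 (adjusted p = 0.25). Zap70 93662_s_at overlapped, with 12.12, 11.84 and 12.01 in A/J, against 11.81, 12.17 and 12.16 in C57BL/6J (-0.06 ± 0.11). The change of the strain difference between the times did not pass limma's test for any member in spleen (0 of 11, of which 3 had an unadjusted p under 0.05; 0.185% of all probe sets were higher and 0.0242% lower). The largest such change was that of Zap70 93662_s_at, at -0.60 ± 0.15 (adjusted p = 0.088).

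**Figure D3:**
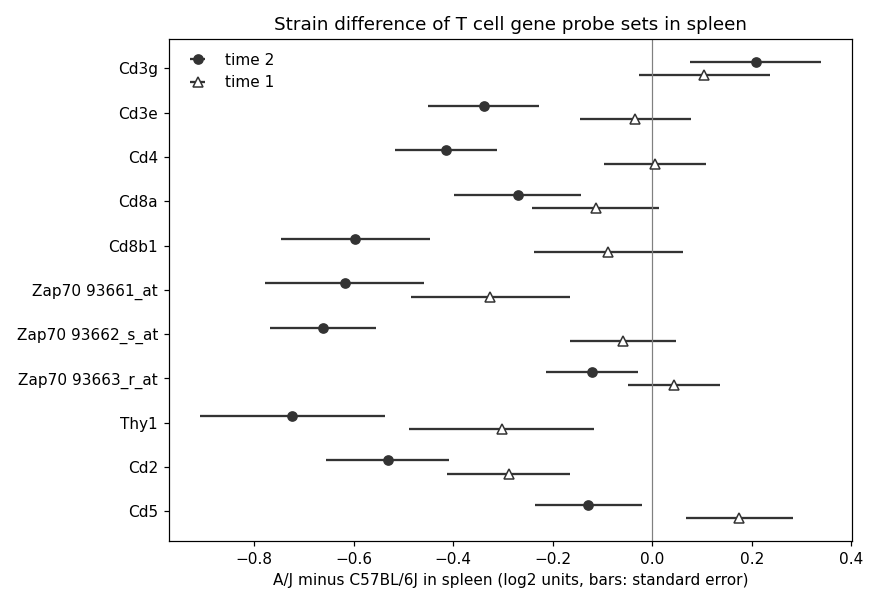
Strain difference in spleen (A/J minus C57BL/6J, log2 units) for each probe set at time 2 (filled circles) and time 1 (open triangles), with standard errors from 3 arrays per group. At time 2, 10 of 11 differences are below 0, from -0.12 to -0.72, and Cd3g is at 0.21; at time 1, 7 of 11 are below 0.

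These calls depended on the arrays used. All of them were lost, over both times and at time 2, without the 5 spleen arrays high in pancreas genes. That set leaves a single A/J array at time 1 and a single C57BL/6J array at time 2. Both are assumed to vary like the other groups. How many of all probe sets lost their call there is not given. The time 2 differences of the 6 called probe sets then ran from -0.29 ± 0.13 (Cd8b1) to -0.57 ± 0.15 (Zap70 93662_s_at, adjusted p = 0.086), with those of Zap70 93661_at at -0.33 ± 0.14, Cd2 at -0.38 ± 0.15, Cd4 at -0.50 ± 0.14 and Thy1 at -0.56 ± 0.29.

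Other cell types' genes moved with strain in the same spleens. The erythroid list averaged 11.69 ± 0.13 in A/J and 9.60 ± 0.25 in C57BL/6J at time 2 (SD, n = 3 each), and 11.20 ± 0.13 in A/J and 10.52 ± 0.50 in C57BL/6J at time 1, with 10 of its 11 genes higher in A/J. Its arrays did not overlap at either time. The cell cycle list had 12 of 18 genes higher in A/J, against 6.05% of all probe sets. Hepatocyte genes averaged 8.93 ± 0.41 in A/J and 8.02 ± 0.29 in C57BL/6J at time 2, where Alb, the serum albumin gene of liver, averaged 12.52 ± 0.69 in A/J and 9.07 ± 1.08 in C57BL/6J. Pancreas genes averaged 9.65 ± 0.25 in A/J and 11.16 ± 1.51 in C57BL/6J at time 2. RNA quality was read by the log2 3′ over 5′ signal of Gapdh. In the spleens of time 2 it was 0.90, 0.82 and 0.58 in A/J and 0.60, 0.48 and 0.51 in C57BL/6J. At time 1 it was 1.31, 0.72 and 0.85 in A/J and 0.71, 0.74 and 0.88 in C57BL/6J. The part of RNA quality in the T cell differences was not tested.

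Several lists of other white blood cells gave only lower calls in A/J, and neutrophil genes did not. Lower were 6 of 14 B cell genes, 4 of 10 cytotoxic and natural killer genes, 4 of 8 dendritic cell genes and 6 of 13 macrophage genes. Of all probe sets, 6.67% were lower and 6.05% higher. The B cell list averaged 11.08 ± 0.13 in A/J and 11.36 ± 0.14 in C57BL/6J at time 2. Its median difference over both times was -0.269. The neutrophil list went mostly the other way, with 5 of its 14 genes higher and 2 lower. The part of these cell types in the T cell differences was not tested.

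**Figure D4:**
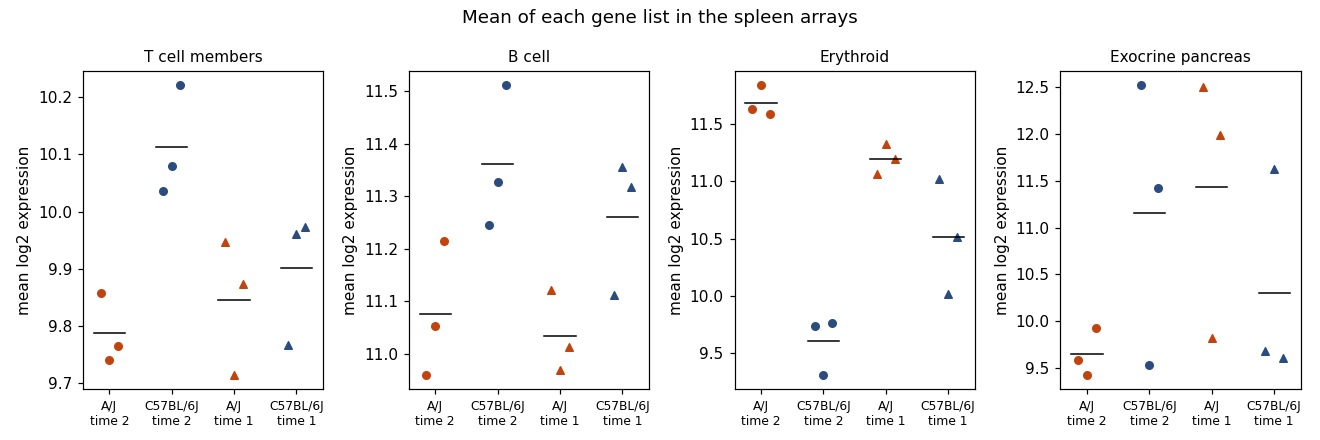
Mean log2 expression (vertical axes) of 4 gene lists in each of the 12 spleen arrays by time and strain; bars are group means of 3 arrays. In the T cell panel, which reads each of 9 genes by its brightest probe set, time 2 averages 9.79 ± 0.06 in A/J and 10.11 ± 0.10 in C57BL/6J (SD), while the erythroid list runs the other way and the pancreas list is high in 5 arrays.

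The companion genes of T cell signalling also gave lower calls in A/J spleens, where 6.67% of all probe sets were lower and 6.05% higher. Of the 15 receptor and proximal signalling genes, 4 were lower and none higher, with a median of -0.229: Ptpn22, a phosphatase that restrains receptor signalling (-0.68 ± 0.12, adjusted p = 0.0016), Fyn, an Lck-related kinase (-0.24 ± 0.06), Ptpn6 (-0.28 ± 0.08) and Sla (-0.28 ± 0.08). Ptpn6 and Sla also act in other blood cells. Of 27 costimulatory and surface genes, 6 were lower and none higher, with a median of -0.121. Cd44, an adhesion receptor, differed by -0.74 ± 0.11, Ltb, a lymphotoxin chain, by -0.58 ± 0.09, Cd7 by -0.48 ± 0.07 and the integrin chain Itgb7 by -0.40 ± 0.08.

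Among 12 transcription factors, 3 were lower and 1 higher. Runx1, which takes part in T cell development, averaged 7.18 ± 0.08 in A/J and 8.56 ± 0.34 in C57BL/6J at time 2, and differed by -0.94 ± 0.17 over both times (adjusted p = 0.0025). Ets1, an ETS factor of lymphocytes, was the 1 gene that was higher: it averaged 10.13 ± 0.03 in A/J spleens and 9.68 ± 0.09 in C57BL/6J spleens at time 2, with a difference of 0.44 ± 0.06 over both times (adjusted p = 0.00025). The same 2 genes differed in lung, Runx1 by -0.91 ± 0.14 and Ets1 by 0.37 ± 0.07. Nfatc1 (-0.58 ± 0.11) and Klf2 (-0.26 ± 0.08) were lower in A/J spleens. Of 8 homing genes, 2 were lower, Selplg by -0.56 ± 0.06 and Ccr6 by -0.29 ± 0.07, and of 5 thymocyte genes 0 were called.

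No strain difference in the balance of the coreceptors passed the test. Within each array, Cd8b1 minus Cd4 averaged -0.77 ± 0.15 in A/J spleens and -0.63 ± 0.35 in C57BL/6J spleens (SD, n = 6 each), and Cd8a minus Cd4 averaged -2.87 ± 0.13 in A/J and -2.89 ± 0.28 in C57BL/6J. These differences between probe sets have no meaning as ratios of the genes and serve only to compare the strains. An exact permutation test within times, two-sided, over 3 pairs of probe sets in spleen and 3 in lung gave adjusted p-values of 0.85 to 0.88, where 0.005 is the smallest unadjusted p that 400 permutations allow. The strain difference in Cd8a minus Cd8b1 was 0.15 in spleen and 0.085 in lung. These are averages over the times: -0.02 at time 1 and 0.33 at time 2 in spleen, and 0.28 and -0.11 in lung. Cd8b1 minus Cd4 in lung gave -0.38 at time 1 and 0.25 at time 2. The signs were opposite at the times for every pair except Cd8b1 minus Cd4 in spleen (-0.09 and -0.18).

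In liver, Zap70 was the 1 member called for strain over both times, in 2 of its 3 probe sets. They were the 2 of 11 lower in A/J (2.53% of all probe sets), and 0 were higher (1.54% of all). At time 2, Zap70 93662_s_at had 11.10, 10.96 and 10.98 in A/J livers, against 11.63, 11.88 and 11.93 in C57BL/6J livers. At time 1 it had 11.23, 11.23 and 11.30 in A/J, against 11.53, 11.51 and 11.92 in C57BL/6J. Every A/J liver of either time lay below every C57BL/6J liver (1.18% of all probe sets), and the difference over both was -0.60 ± 0.09 (adjusted p = 0.0013).

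Zap70 93661_at had 8.74, 8.83 and 9.004 in A/J, against 9.30, 9.51 and 9.57 in C57BL/6J at time 2. At time 1 it had 9.47, 9.15 and 9.18 in A/J, against 9.51, 9.87 and 9.98 in C57BL/6J. The strains were apart within each time, at time 1 by a narrow margin (9.47 in the highest A/J liver and 9.51 in the lowest C57BL/6J liver), and the difference over both was -0.56 ± 0.09 (adjusted p = 0.0017). Zap70 93663_r_at differed by 0.08 ± 0.06 and was not called.

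By time, Zap70 93661_at and 93662_s_at differed by -0.60 ± 0.13 and -0.80 ± 0.11 at time 2, both past the test, and by -0.52 ± 0.13 (adjusted p = 0.043) and -0.40 ± 0.11 (adjusted p = 0.073) at time 1. The C57BL/6J livers of time 1, at 9.51 to 9.98 in Zap70 93661_at, lay within or above the range of the C57BL/6J spleens of the same time, at 9.28 to 9.71. So did the A/J livers of time 1, at 9.15 to 9.47, against the A/J spleens of that time, at 8.98 to 9.31. At time 2, 2 of 11 were called lower in A/J livers (7.87% of all) and 0 higher (5% of all), with 6 at an unadjusted p under 0.05, and at time 1, 1 was lower (1.2% of all) and 0 higher (1.73% of all). The change of the strain difference between the times passed limma's test for 0 of 11 in liver, with 5 at an unadjusted p under 0.05 (1.01% of all higher, 3.9% lower).

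None of the other 8 genes was called in liver over both times, where Cd2 differed by 0.10 ± 0.08, Cd3e by 0.03 ± 0.07 and Thy1 by -0.03 ± 0.06. Their arrays were at times apart all the same. At time 2, Cd2, Cd4, Cd5 and Zap70 93663_r_at were higher in every A/J liver than in every C57BL/6J liver (4 of 11, 18.3% of all probe sets), and the 2 called Zap70 probe sets were lower (14.9% of all). At time 1, 3 of 11 were lower (9.45% of all), the same Zap70 probe sets and Cd4, which had 10.15, 10.16 and 10.18 in A/J, against 10.34, 10.20 and 10.24 in C57BL/6J. None of the receptor signalling, B cell or natural killer genes was called in liver, while 2 of 27 costimulatory and surface genes (Cd53 by -0.49 ± 0.11 and Cd52 by -0.39 ± 0.08, both of leukocytes in general) and 3 of 13 macrophage genes were lower in A/J. A single C57BL/6J liver of time 2 was high in pancreas genes, at 12.17, and both Zap70 calls over both times stayed past the test when any 1 liver array was left out.

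In lung and heart, limma called 0 of the 11 for strain, with 1 unadjusted p under 0.05 in each tissue (lung: 2.7% of all higher, 2.52% lower; heart: 4.57% higher, 2.91% lower). In lung that member was Zap70 93662_s_at, which had 10.59, 10.78 and 10.72 in A/J, against 11.03, 11.04 and 10.92 in C57BL/6J at time 1 and overlapped at time 2 (-0.19 ± 0.07 over both, adjusted p = 0.12). In heart it was Thy1 (0.19 ± 0.06, adjusted p = 0.058), with 10.03, 10.001 and 10.28 in A/J, against 9.79, 9.91 and 9.89 in C57BL/6J at time 2, and no overlap at either time. In lung at time 2, Cd2 had 9.09, 8.85 and 8.86 in A/J, against 8.64, 8.71 and 8.80 in C57BL/6J, without overlap, and the B cell list averaged 9.14 ± 0.34 in A/J and 8.78 ± 0.05 in C57BL/6J there. The part of B cells in the Cd2 difference was not tested. Counted over all members, 3 of 11 separated the strains in lung at time 1, Zap70 93662_s_at, Thy1 and Cd2, all lower in A/J (10.2% of all probe sets), and 1 at time 2, Cd2, higher (12.9% of all). Lists of other lymphocytes were also apart in the lungs of time 1: the cytotoxic and natural killer list (2 of 10 genes called lower) averaged 7.58 ± 0.04 in A/J lungs and 7.91 ± 0.02 in C57BL/6J lungs, and the B cell list averaged 8.72 ± 0.01 in A/J and 8.96 ± 0.10 in C57BL/6J (SD, n = 3 each), neither with overlap. Their part in the lung differences was not tested. In heart at time 1, Zap70 93661_at and Thy1 were higher in every A/J array (2 of 11, 13.6% of all). Cd4 was lower there (1 of 11, 9.88% of all), and at time 2 Thy1 was higher (1 of 11, 12.1% of all). RNA quality and an airway gene also differed between the strains in the hearts of time 1. The log2 3′ over 5′ signal of Gapdh was 1.34 and 1.41 in 2 A/J hearts, against 0.08 to 0.30 in all other hearts of either time. Scgb1a1 averaged 10.67 ± 0.94 in A/J and 13.01 ± 0.98 in C57BL/6J. The part of either in the heart separations was not tested.

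The strain difference itself differed between tissues for 4 of the 11 probe sets (18.5% of all), by an F test over the 4 tissues and all 48 arrays. They were Zap70 93661_at (F = 8.85, adjusted p = 0.0016), Zap70 93662_s_at (F = 8.43, adjusted p = 0.0022), Thy1 (F = 8.32, adjusted p = 0.0024) and Cd2 (F = 8.27, adjusted p = 0.0025). The 2 Zap70 probe sets were lower in A/J in spleen and liver, with differences of 0.07 ± 0.07 and 0.01 ± 0.05 in heart. Thy1 and Cd2 were lower in A/J in spleen, with liver differences of -0.03 ± 0.06 and 0.10 ± 0.08. With the time 1 arrays alone 0 of the 11 passed this test, and with the time 2 arrays alone 7 passed. The share of all probe sets past it in these smaller sets of arrays is not given.

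**Figure D5:**
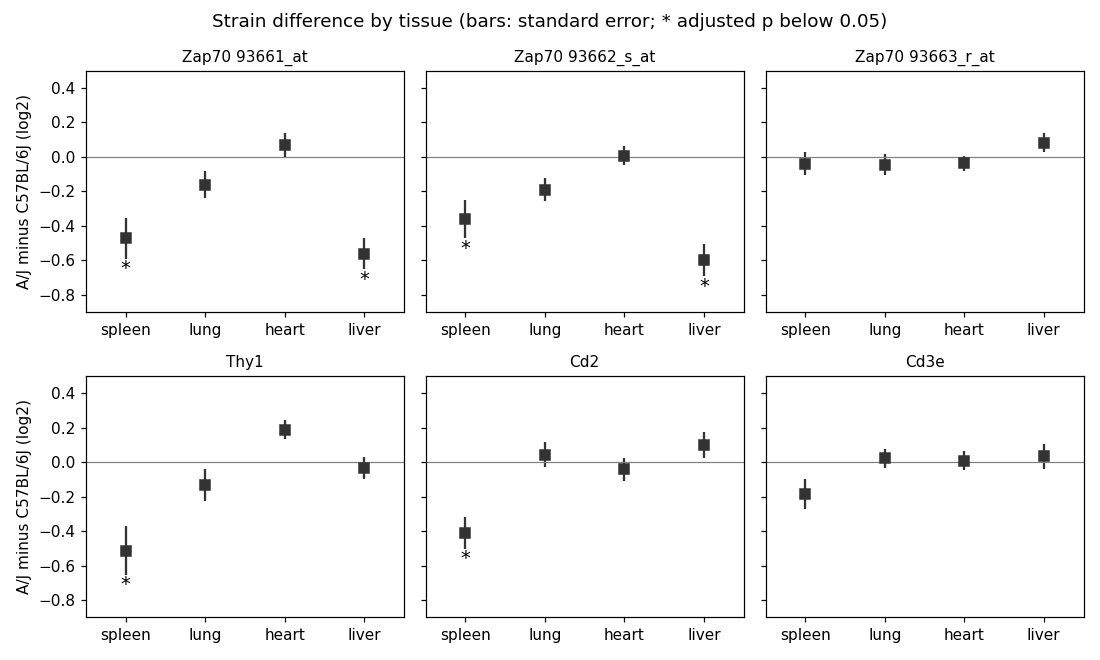
Strain difference (A/J minus C57BL/6J, log2 units, vertical axes) in each tissue over both times for the 3 Zap70 probe sets, Thy1, Cd2 and Cd3e, with standard errors from 12 arrays per tissue; stars mark an adjusted p below 0.05. Zap70 93661_at and 93662_s_at are lower in spleen and liver, Thy1 and Cd2 in spleen, and Zap70 93663_r_at and Cd3e have no star.

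Between the times, Cd3g was higher at time 2 in every tissue. In spleen it averaged 7.82 ± 0.24 at time 2 and 7.47 ± 0.11 at time 1 (SD, n = 6 each), a difference of 0.34 ± 0.09 (adjusted p = 0.013). The differences were 0.17 ± 0.06 in lung, 0.23 ± 0.06 in heart and 0.29 ± 0.08 in liver, all past the test. Cd2 was higher at time 2 in spleen (0.36 ± 0.09), lung (0.28 ± 0.07) and heart (0.30 ± 0.07), and in liver its difference was -0.08 ± 0.08. Time and the array name set coincide within each tissue and cannot be told apart.

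In all, 2 members were higher at time 2 in spleen (13% of all probe sets) and 1, Zap70 93663_r_at, was lower (18.9%). In lung 2 were higher (15.8%) and 0 lower (18.9%), with 1 lower at an unadjusted p under 0.05. RNA quality and hepatocyte genes moved with time in the same lungs. The log2 3′ over 5′ signal of Gapdh was 1.05 to 1.96 at time 2 and 0.64 to 1.08 at time 1. All 13 hepatocyte genes were called lower at time 2, where their list averaged 7.77 ± 0.14 in A/J and 7.94 ± 0.08 in C57BL/6J, against 9.09 ± 0.24 in A/J and 8.61 ± 0.52 in C57BL/6J at time 1. The part of either in the Cd3g and Cd2 differences was not tested.

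In heart 4 were higher (15.7%), with Zap70 93661_at (0.38 ± 0.07) and Cd3e (0.18 ± 0.06) added, and 1, Thy1, was lower (-0.21 ± 0.06; 19.3%). In liver 1 was higher (20.2%) and 4 were lower (30.1%): Thy1 (-0.48 ± 0.06), Zap70 93661_at (-0.37 ± 0.09), Cd3e (-0.27 ± 0.07) and Zap70 93663_r_at (-0.27 ± 0.06). In heart at time 1, 2 A/J arrays had a raised log2 3′ over 5′ signal of Gapdh, at 1.34 and 1.41, against 0.08 to 0.30 in the other 10 hearts. Without them, which leaves a single A/J heart at time 1 assumed to vary like the other groups, 2 members were called higher, Zap70 93661_at and Cd2. The differences of Cd3g (0.19 ± 0.07, adjusted p = 0.058) and Cd3e (0.17 ± 0.06, adjusted p = 0.065) were then close in size to those over all 12 hearts. The airway gene Scgb1a1 averaged 10.67 ± 0.94 in the A/J hearts of time 1 and 13.01 ± 0.98 in the C57BL/6J hearts of time 1, against 9.18 ± 0.28 and 10.09 ± 2.19 in the A/J and C57BL/6J hearts of time 2. Leaving out the 5 spleens high in pancreas genes leaves a single A/J array at time 1 and a single C57BL/6J array at time 2. The time differences in spleen were then 0.51 ± 0.12 for Cd3g and 0.42 ± 0.11 for Cd2.

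The genes whose levels ran most like the members over the 16 group means were, by Pearson correlation with the average of the members' scaled profiles, Ighg3 (0.988), Pou2f2 (0.982), Slc25a53 (0.980), Blk (0.980), Fcho1 (0.979), Cst7 (0.976), Tnfrsf18 (0.976) and Gpr65 (0.976). Pou2f2 and Blk are known from B cells, and Tnfrsf18 and Cst7 from T and natural killer cells. The members themselves correlated with this average by 0.901 to 0.984, except Zap70, read here by its brightest probe set 93663_r_at, at 0.0068. Here and in the spleen arrays below, each member is part of the average, which raises its correlation. The 16 means share tissues, with 4 groups from each. Over the 12 spleen arrays after each group's mean was taken off, the closest were Mrtfa (0.926), Dbi (0.918), Slc25a53 (0.910), Slc7a6 (0.908), Itih3 (0.882), Spsb1 (0.881), E4f1 (0.874) and Slco6c1 (0.872), and the members ran from 0.261 (Zap70 93663_r_at) to 0.845 (Cd3e). Slc25a53 was the 1 gene on both lists. Both lists hold the highest correlations among all other probe sets with 1 symbol, a choice that by itself favours high values. The 12 spleen arrays include the 5 high in pancreas genes, whose part in these correlations was not tested.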

How the data were processed

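RNA of 48 samples was hybridised to 1 Affymetrix array each, with targets made from about 20 micrograms of total RNA, per the labels. Their range shows that the deposited values are log2 intensities. The authors' normalization is not stated in the labels or the file, and the values were kept unchanged, dim probe sets included. The 66 control probe sets of 12488 were left out. The platform's table gave 1 gene symbol for 10833 of the remaining 12422, several for 396, and did not list 1193. No detection calls were used, so a value near background cannot be told from absence, and the number of arrays limits the precision.

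Differences were tested with limma 3.58.1 (R 4.3.3), and p-values were adjusted by Benjamini-Hochberg across the 12422 probe sets, with 0.05 as the limit. In each tissue's 12 arrays, strain and time were fitted together as additive terms, strain at each time came from 4 group means, and tissues were compared in the 24 arrays of time 2. Tables and the permutation test used Python 3.11.15 with scipy 1.17.1. The fits were tested on simulated data. Companion and marker genes were each read by their brightest probe set. Up to 4 genes per companion list with the smallest p among those past the test are named, and the 8 genes most like the members. Alb and Scgb1a1 were singled out after their values were seen. The members and lists were chosen with earlier results of these data known. Replicate numbers were checked for pairing by correlating deviations from group means. Same-numbered arrays of the strains, which cannot share a mouse, correlated by -0.577 to 0.363, with 7 of 24 pairs over 0.1. Those of different tissues at time 2, within a strain, correlated by -0.34 to 0.29, with 8 of 36 pairs over 0.1. Those of the times, within a tissue and strain, correlated by -0.378 to 0.464, with 8 of 24 pairs over 0.1. Arrays were not paired, and this check cannot show whether tissues with unlike numbers share a mouse. Alternatives were other normalizations, a filter on dim probe sets, other spread estimates, a replicate block and leaving out arrays.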

Additional observations from a re-analysis of the deposited data

Results flagged for a closer look

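An F test called the strain difference as unequal between tissues for 4 of 11 T cell gene probe sets, against 18.5% of all probe sets. With the time 1 arrays alone none of them passed. The strain difference (A/J minus C57BL/6J) of Zap70 93661_at was -0.47 in spleen, -0.16 in lung, 0.07 in heart and -0.56 in liver (F = 8.848). That of Zap70 93662_s_at was -0.36 in spleen, -0.19 in lung, 0.01 in heart and -0.60 in liver (F = 8.43). That of Cd2 was -0.41 in spleen and between -0.04 and 0.10 in the other tissues (F = 8.265). That of Thy1 was -0.51 in spleen, -0.13 in lung, 0.19 in heart and -0.03 in liver (F = 8.317).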

How the results depend on the processing

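Counts below are of T cell gene probe sets past limma's test, without the share of all probe sets past it in each setting. Arrays of time 1 in place of time 2 turned the sign of 5 tissue differences that passed the test at either time: heart minus liver to -0.226 for Cd2, -0.226 for Cd3e and -0.0704 for Zap70 93663_r_at, lung minus liver to -0.104 for Cd3e, and spleen minus liver to -0.180 for Zap70 93661_at. With those arrays, heart minus liver gave 1 higher and 5 lower, lung minus liver 2 higher and 5 lower, spleen minus heart 0 lower and spleen minus liver 1 lower. The cause was not tested, and at time 1 the tissues lie in different array name sets, except lung and liver, which share 1. Time 1 arrays alone left 0 lower for strain in spleen, 0 in liver and 0 for strain by tissue, where time 2 arrays alone gave 7.

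For strain in spleen, the count of 4 became 2 with the replicate block, 7 with a spread shared over all arrays, and 0 without the 5 arrays high in pancreas genes. At time 2 the last setting, added after seeing the data like all settings for strain at 1 time, also gave 0 of 6. Leaving out 1 array at a time gave 2 to 5 over both times and 3 to 6 at time 2. Over both times, 7 arrays each reduced the count to 2: A/J replicate 2 of time 1, A/J replicates 1 and 3 of time 2, C57BL/6J replicates 2 and 3 of time 1, and C57BL/6J replicates 1 and 3 of time 2. Thy1 and Zap70 93662_s_at were the calls lost. At time 2, the count was 3 without A/J replicate 3 and 4 without C57BL/6J replicate 3. Leaving out 1 array gave 1 to 3 lower for lung minus heart, 0 to 1 lower for strain at time 1 in liver, 0 to 4 higher for strain at time 2 in liver (4 without A/J replicate 2 of time 2, 1 without C57BL/6J replicate 3 of time 1), 0 to 1 in each direction for strain by time in liver, 0 to 1 lower for strain in lung, 1 to 2 higher and 0 to 2 lower for time in lung, and 0 to 1 lower for time in spleen.

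Quantile normalization gave 1 higher for lung minus heart, 2 lower for strain at time 1 in liver, 1 higher for strain at time 2 in liver, 1 lower for strain in lung and 1 lower for time in lung. The replicate block gave 1 higher for lung minus heart, 0 lower for strain at time 1 in liver and 1 lower for time in lung. Centring arrays on the median gave 0 lower for strain at time 1 in liver, and a prior with an intensity trend gave 2 lower there and 1 higher for strain in heart. Leaving out the lowest 0.25 of probe sets by mean gave 1 higher for strain in heart, 0 higher for time in liver and 1 higher for time in lung. C57BL/6J arrays alone gave 1 higher for time in heart, 0 in liver, 0 in lung and 1 in spleen, with 0 lower in spleen. A/J arrays alone gave 0 lower for time in heart, 2 in lung and 3 in spleen, with 1 higher in spleen. Without the 2 hearts with a high Gapdh 3′ end, which leaves 1 A/J heart at time 1, 2 were higher for time in heart. Without the 5 spleens high in pancreas genes, 0 were higher and 0 lower for time in spleen, and without those of time 2, spleen minus heart gave 0 lower. Of the single probe set results, 5868 stayed on their side of the limit, 107 lost and 61 gained a call. Another 5 changed sign with a call in either setting. The 5868 include any uncalled results whose sign changed, so they are no count of kept directions.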

Other observations

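Variable genes of the T cell receptor are read by 12 probe sets of 8 genes, a list chosen after the data were seen. Of these, 8 were higher in spleen than in lung at time 2 (29.3% of all probe sets) and 0 were lower (23.8% of all). For strain in spleen 4 were called, in both directions (6.05% of all higher in A/J, 6.67% lower). Trav9d-3 97945_at, an alpha chain variable gene, averaged 11.26 ± 0.17 in A/J spleens and 10.40 ± 0.34 in C57BL/6J spleens (SD, n = 6 each), a difference of 0.86 ± 0.12 (limma's adjusted p = 0.00058), with 0.75 ± 0.17 at time 2 and 0.97 ± 0.17 at time 1. The lowest A/J spleen, at 11.05, lay above the highest C57BL/6J spleen, at 10.83. Another probe set of this gene, Trav9d-3 97944_f_at, whose suffix marks probes shared by a gene family, averaged 12.11 ± 0.15 in A/J and 12.03 ± 0.05 in C57BL/6J and was not called. Trgv1, a gamma chain variable gene, was higher in A/J by 0.33 ± 0.08. The beta chain variable genes Trbv13-2 101279_f_at and Trbv1 93105_s_at were lower by 0.57 ± 0.10 and 0.25 ± 0.07, while the second probe sets of both genes were not called. Whether the strains differ in the sequence these probes read was not tested.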
